A study of Rattus norvegicus with 6 samples.

Results

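The genes described here encode the standing, or constitutive, parts of the proteasome and the proteins that build and regulate it. Their RNA was measured in colonic epithelium (the inner layer of the colon) from 6 adult Wistar males. Every rat was pinealectomized, so endogenous pineal melatonin was lacking in both groups. 3 rats, animals 4 to 6, received melatonin (1 mg/kg, injected into the peritoneum). The other 3, animals 1 to 3, received the vehicle, 2.5% ethanol in PBS. The rats were injected as subjective night began and sacrificed after 4 h. Members were the genes whose RefSeq rat symbol starts with Psma, Psmb, Psmc, Psmd, Psme, Psmf or Psmg, apart from Psmb8, Psmb9, Psmb10, Psme1 and Psme2, which interferon induces. This gave 41 of the 12340 genes with a symbol in the table, each with 1 transcript. All 41 passed the filter on low values, a mean of at least 1 FPKM (fragments scaled for transcript length and library size). The symbol rule also took in Psma8, Psmc3ip and Psme3ip1, of which Psma8 is an alpha subunit of the male germ line and the others are interacting proteins named after a subunit.

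The proteasome degrades proteins tagged with ubiquitin. Its core particle is a barrel of alpha and beta rings, with the cutting sites inside the beta rings, and its regulatory particle binds the tagged protein, removes the ubiquitin, unfolds the chain with a ring of ATPases and feeds it into the barrel. Most subunits are present in equal number in the assembled complex. In mammals the transcription factor NFE2L1 raises the subunit genes together when proteasome activity falls short, and it binds antioxidant response elements in their promoters. CCAAT boxes, bound by NF-Y, are known in human proteasome gene promoters too. In epithelium, interferon exchanges catalytic beta subunits for induced ones that favour peptides for MHC class I.

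The promoters of the catalytic subunit genes Psmb5, Psmb6 and Psmb7 are shown because these subunits do the cutting, and those of Psmc1, Psmf1 and Psme4 because the melatonin and vehicle animals did not overlap for these genes. Each run is the 170 bases before the annotated start in GRCr8, from RefSeq, 5′ to 3′ on the gene's strand. Capitals mark the antioxidant response element core TGACNNNGC or the CCAAT box, on either strand.
Psmb5, chr15:32047380-32047549, minus strand: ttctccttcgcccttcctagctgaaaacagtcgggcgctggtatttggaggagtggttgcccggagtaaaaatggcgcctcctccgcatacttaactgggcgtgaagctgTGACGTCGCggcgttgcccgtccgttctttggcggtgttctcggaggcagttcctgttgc
Psmb6, chr10:55737718-55737887, plus strand: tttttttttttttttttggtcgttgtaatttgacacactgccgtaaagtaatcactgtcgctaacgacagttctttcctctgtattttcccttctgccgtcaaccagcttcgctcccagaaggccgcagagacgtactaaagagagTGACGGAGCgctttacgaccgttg
Psmb7, chr3:42827471-42827640, minus strand: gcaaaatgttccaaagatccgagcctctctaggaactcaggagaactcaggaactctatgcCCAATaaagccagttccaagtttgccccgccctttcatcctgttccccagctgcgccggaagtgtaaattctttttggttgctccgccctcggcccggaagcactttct
Psmc1, chr6:125122327-125122496, plus strand: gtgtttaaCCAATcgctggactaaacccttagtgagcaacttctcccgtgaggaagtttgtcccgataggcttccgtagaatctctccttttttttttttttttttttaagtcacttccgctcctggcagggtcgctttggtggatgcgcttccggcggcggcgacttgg
Psmf1, chr3:160720916-160721085, minus strand: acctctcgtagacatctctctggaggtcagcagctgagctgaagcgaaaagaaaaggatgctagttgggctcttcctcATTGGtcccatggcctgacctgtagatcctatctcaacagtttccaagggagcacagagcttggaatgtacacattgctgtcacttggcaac
Psme4, chr14:108706473-108706642, plus strand: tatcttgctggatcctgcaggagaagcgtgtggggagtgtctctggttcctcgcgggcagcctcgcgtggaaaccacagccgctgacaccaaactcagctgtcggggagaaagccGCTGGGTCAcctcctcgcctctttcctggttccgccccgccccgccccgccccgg
In Psmb5 and Psmb6 the element core begins 60 and 24 bases before the start, and in Psme4 it lies on the opposite strand, 55 bases before. Psmb7 and Psmc1 hold a CCAAT box 109 and 162 bases before the start, and Psmf1 holds one on the opposite strand at 92 bases. Promoter entries of 300 bases, 250 before and 50 after the start, were at hand for 37 members. TGACNNNGC was in 8 of them, or 21.6%, against 14.3% of the 10465 promoters of genes in the table and 12.1% of all 33469 promoters. CCAAT was in 20, or 54.1%, against 37.5% of either larger set. Both motifs were found in Psma3, Psmb2 and Psmd9, with an overlap in Psmb2, and neither in 12 members. Psmc6 and Psmc3ip, also without overlap between the groups, are not printed. Psmc6 was among these 12, and Psmc3ip holds a CCAAT box 73 bases before the start. A match is a stretch of letters and not a measured binding site.

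The libraries held an estimated 3280000 to 3550000 mapped fragments each, and the median over the members was 222 estimated reads. Absorptive colonocyte markers were all in the table, with a summed level of 9678 to 11332 FPKM in melatonin animals and 10468 to 11103 in vehicle animals. Fibroblast markers summed to 1.70 to 3.04 FPKM in melatonin animals and 1.53 to 4.02 FPKM in vehicle animals. Sums were higher for macrophage and dendritic cell markers and for red blood cell markers. The lists hold different genes, so their sums do not rank how much RNA each cell type left. Macrophage and dendritic cell markers summed to 109.9 to 153 FPKM in melatonin animals and 99.2 to 161 FPKM in vehicle animals. Red blood cell markers summed to 77.4 to 135 FPKM in melatonin animals and 129 to 173 FPKM in vehicle animals. Melatonin animals 5 and 6 stood apart in interferon-stimulated genes. These 18 tested genes summed to 150, 413 and 531 FPKM in melatonin animals 4, 5 and 6, against 193, 162 and 169 FPKM in vehicle animals 1, 2 and 3. In a bulk sample, fewer cells of a type and less RNA per cell cannot be told apart.

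No proteasome gene passed the test of melatonin against vehicle, and the data bound how large a change could have been missed. With limma on log2(FPKM + 1), 0 of 41 members were called at an adjusted p under 0.05, where the background over all 10137 features was 0%. Unadjusted p-values were under 0.05 for 0 members too, against a background of 3.75% (1.82% higher and 1.92% lower), and limma voom on estimated reads gave 0 at both thresholds. The smallest unadjusted p among members was 0.0513, for Psmc3ip. The median log2 difference, melatonin minus vehicle, was 0.03 over the members and -0.02 over all features. It was positive for 27 members and negative for 14, where 46.0% of all features were positive. Without melatonin animal 5 the positive members numbered 18, and without animals 5 and 6 they numbered 16. They numbered 31 without melatonin animal 4 and 30 without vehicle animal 1, so the count moved both ways. Summed over the 41 genes, the level was 2189 ± 161 FPKM in melatonin animals and 2122 ± 115 FPKM in vehicle animals (SD, n = 3 each).

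The intervals were narrow for the abundant subunits. Of the 30 core and regulatory particle subunits other than Psma8, 29 had a 95% interval of the log2 difference inside -0.5 to 0.5, and all 30 had one inside -1 to 1. The exception was Psma5, with an interval of -0.16 to 0.54. Of all 41 members, 33 (80.5%) had an interval inside -0.5 to 0.5 and 39 had one inside -1 to 1. Over all features tested, 43.7% had an interval inside -0.5 to 0.5. Abundant features had intervals of similar width. The median reach to either side was 0.27 for the 30 subunits and 0.30 for features with a mean of at least 20 FPKM. The spread between animals of a group had a median of 0.14 on the log2 scale over these 30 subunits, against 0.21 over all features and 0.15 over the 4409 features with a mean of at least 20 FPKM.

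**Figure D1:**
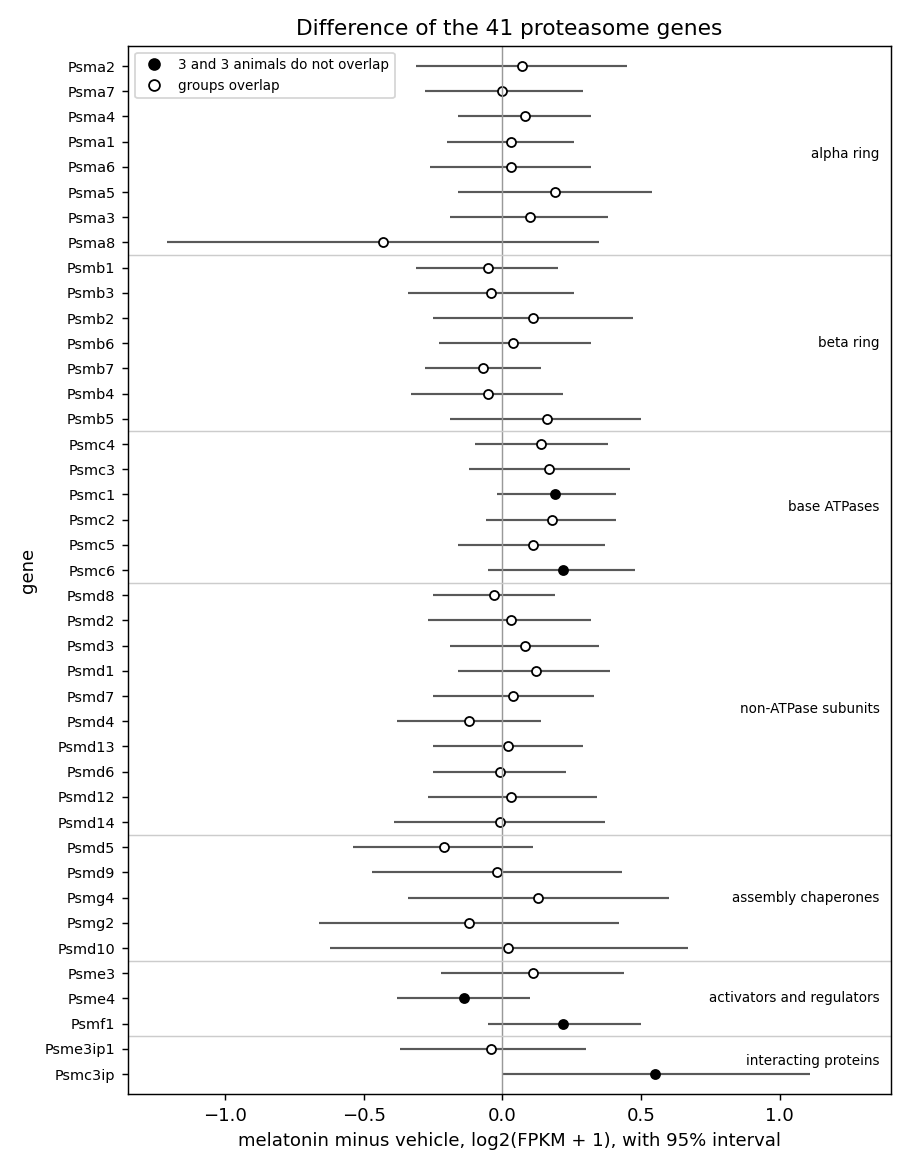
Difference of each of the 41 genes on the log2(FPKM + 1) scale, melatonin minus vehicle (circle), with its 95% interval (line), ordered by role and falling level. Filled circles mark the 5 genes whose 3 melatonin and 3 vehicle animals did not overlap. All 41 intervals reach or cross 0, and the widest are those of Psma8, at -1.21 to 0.35, and Psmd10, at -0.62 to 0.67.

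Levels differed far more between genes than between animals. Over the 14 core particle subunits other than Psma8, mean levels ran between 31.9 and 159 FPKM, a coefficient of variation of 39.5% between genes, while the median coefficient of variation of 1 gene over the 6 animals was 9.97%. Base ATPases spanned 27.4 to 76.3 FPKM and the other regulatory particle subunits 25.0 to 85.7 FPKM. The assembly chaperones lay lower, at 10.8 to 24.9 FPKM. In the order of all 41 levels, 37 of the 40 neighbouring pairs were closer than their spread over the animals. FPKM is a level per transcript length, so these genes can be set beside each other, but 17 members have pseudogenes or like-named copies in the RefSeq annotation (10 for Psmb3), and how reads were divided among copies is not given in the sources used here.

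**Figure D2:**
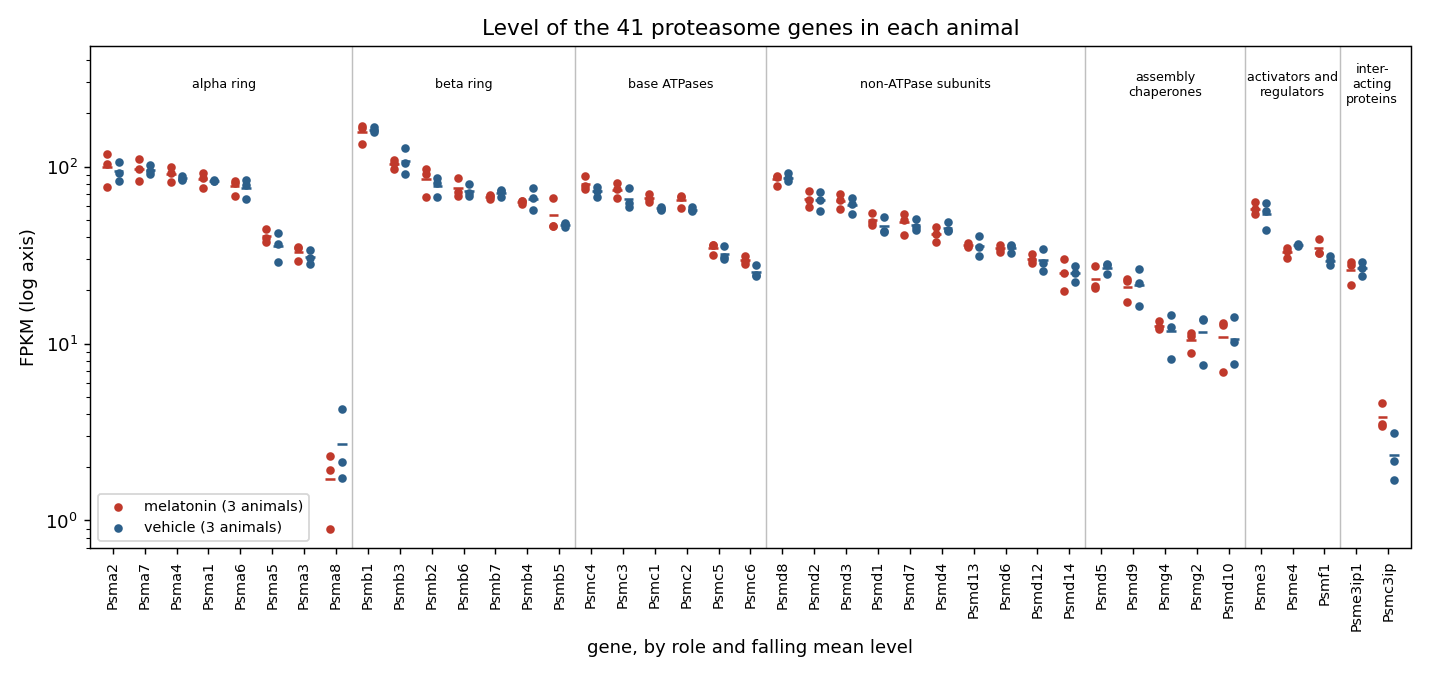
FPKM (log axis) of each of the 41 genes in each animal, melatonin to the left and vehicle to the right, with a bar at the mean of 3 animals. Psmb1 is highest at a mean of 159 FPKM over the 6 animals, and Psma8 and Psmc3ip lie far below the rest at 2.21 and 3.09 FPKM.

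The alpha rings form the outer gates of the core particle. Of 8 alpha genes, 7 had a positive and 1 a negative log2 difference, with a median of 0.05 and 0 past the threshold. Without melatonin animal 5 the positive alpha genes numbered 3 (median -0.03), and without vehicle animal 2 they numbered 4 (median 0.00). The 7 common subunits had differences between 0.00 and 0.19. Psma2, the most abundant of them, stood at 76.88, 116.97 and 103.60 FPKM in melatonin animals 4, 5 and 6 and at 106.16, 82.55 and 92.43 FPKM in vehicle animals 1, 2 and 3. Animal 4 held the lowest and animal 5 the highest value, both within the melatonin group (log2 difference 0.07 ± 0.17 SE, limma adjusted p = 0.981). Psma5 stood at 39.71, 44.54 and 37.54 FPKM in melatonin animals and at 42.16, 28.89 and 36.28 FPKM in vehicle animals. Vehicle animal 2 lay below the other 5 and the groups overlapped (log2 difference 0.19 ± 0.15 SE, limma adjusted p = 0.972). Psma8, which replaces Psma7 in the testis proteasome, was barely present, at 1.92, 2.30 and 0.90 FPKM in melatonin animals and 2.13, 4.26 and 1.73 FPKM in vehicle animals. These values correspond to 6 to 25 estimated reads, and its log2 difference of -0.43 had an interval of -1.21 to 0.35. Psma7 itself averaged 96.5 ± 14.1 FPKM in melatonin animals and 95.7 ± 6.19 FPKM in vehicle animals (SD, n = 3 each).

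The beta rings carry the cutting sites. Of 7 beta genes, 3 had a positive and 4 a negative log2 difference, between -0.07 and 0.16, with 0 past the threshold. The positive beta genes numbered 1 without melatonin animal 5, 2 without vehicle animal 2 and 5 without vehicle animal 1. Psmb5, the subunit that cuts after hydrophobic residues, stood at 46.25, 66.38 and 46.39 FPKM in melatonin animals 4, 5 and 6 and at 47.81, 47.37 and 45.26 FPKM in vehicle animals 1, 2 and 3. Animal 5 alone lay above the others, which kept within a few FPKM of each other (log2 difference 0.16 ± 0.15 SE, limma adjusted p = 0.972). Without animal 5 the difference was -0.01. Psmb6, which cuts after acidic residues, stood at 71.70, 86.35 and 68.38 FPKM in melatonin animals and 79.79, 67.95 and 71.08 FPKM in vehicle animals, and the groups overlapped (log2 difference 0.04 ± 0.12 SE). Psmb7, which cuts after basic residues, stood at 65.85, 68.92 and 68.22 FPKM in melatonin animals and 72.71, 73.57 and 67.00 FPKM in vehicle animals. Vehicle animal 3 lay within the melatonin range (log2 difference -0.07 ± 0.09 SE). The most abundant member, the non-catalytic Psmb1, stood at 169.69, 165.58 and 133.83 FPKM in melatonin animals and 155.65, 161.78 and 166.60 FPKM in vehicle animals. Its lowest and highest values both came from melatonin animals, 6 and 4 (log2 difference -0.05 ± 0.11 SE). The summed beta level was 603.8 ± 39.9 FPKM in melatonin animals and 603.5 ± 36.2 FPKM in vehicle animals (SD, n = 3 each).

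The base ATPases, Psmc1 to Psmc6, unfold the substrate and open the gate. All 6 had positive log2 differences, 0.11 to 0.22 with a median of 0.17, and 0 passed the threshold. Their summed level was 322.4, 370.6 and 353.1 FPKM in melatonin animals 4, 5 and 6 and 326.6, 304.8 and 299.8 FPKM in vehicle animals 1, 2 and 3, so that animal 4 lay within the vehicle range and animals 5 and 6 above it. Psmc1 stood at 62.75, 70.30 and 65.89 FPKM in melatonin animals and 57.91, 59.35 and 56.50 FPKM in vehicle animals. The 3 melatonin values were all higher than the 3 vehicle values (log2 difference 0.19 ± 0.09 SE, limma adjusted p = 0.972). Psmc6 stood at 29.14, 27.98 and 31.36 FPKM in melatonin animals and 23.93, 24.30 and 27.65 FPKM in vehicle animals. Its groups did not overlap either, with vehicle animal 3 just under melatonin animal 5 (log2 difference 0.22 ± 0.11 SE, limma adjusted p = 0.972). Psmc2 stood at 58.25, 67.59 and 68.37 FPKM in melatonin animals and 56.62, 55.96 and 58.69 FPKM in vehicle animals, where melatonin animal 4 lay among the vehicle values (log2 difference 0.18 ± 0.10 SE, limma adjusted p = 0.972). Psmc4, the highest of the 6, averaged 80.0 ± 7.49 FPKM in melatonin animals and 72.5 ± 4.77 FPKM in vehicle animals. It was measured at 74.18, 88.47 and 77.45 FPKM in melatonin animals and 76.95, 73.01 and 67.46 FPKM in vehicle animals, which overlap. The signs of all 6 held under each scaling, filter and pseudocount tried and with any single animal left out. Without melatonin animals 5 and 6 together 5 of 6 were positive and the median was 0.03.

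The groups did not overlap for 5 members in all, 4 higher and 1 lower after melatonin. Over all features this held for 8.38%, with 4.04% higher and 4.33% lower, so 5 of 41 is near the background. With 3 animals against 3 the smallest two-sided p of an exact permutation test of 1 gene is 0.1.

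The other subunits of the regulatory particle receive and deubiquitinate the substrate. Of 10 non-ATPase genes, 6 had positive and 4 negative log2 differences, between -0.12 and 0.12, and 0 passed the threshold. With median-of-ratios scaling 8 were positive, and without melatonin animal 5 only 4 were (median -0.02). Psmd4, a ubiquitin receptor, stood at 37.52, 45.67 and 41.70 FPKM in melatonin animals 4, 5 and 6 and at 43.06, 48.61 and 43.96 FPKM in vehicle animals 1, 2 and 3. Melatonin animal 5 lay within the vehicle range (log2 difference -0.12 ± 0.11 SE, limma adjusted p = 0.972). Psmd14, the metalloprotease that cleaves ubiquitin off the substrate, stood at 19.87, 29.89 and 25.13 FPKM in melatonin animals and 25.17, 27.45 and 22.24 FPKM in vehicle animals. Both extremes were melatonin animals, and the difference of -0.01 turned to 0.01 with median-of-ratios scaling. Psmd8, the most abundant of the 10, stood at 78.05, 87.32 and 88.85 FPKM in melatonin animals and 91.41, 82.85 and 85.63 FPKM in vehicle animals. Its groups overlapped (log2 difference -0.03 ± 0.10 SE). The scaffold subunits Psmd1 and Psmd2 had log2 differences of 0.12 ± 0.12 and 0.03 ± 0.13 SE. Psmd2 averaged 65.4 ± 6.95 FPKM in melatonin animals and 64.3 ± 8.14 FPKM in vehicle animals (SD, n = 3 each).

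Assembly chaperones bind assembly intermediates and leave before the complex is complete. Of 5 genes, 2 had positive and 3 negative log2 differences, between -0.21 and 0.13, with 0 past the threshold. Without vehicle animal 3 the positive chaperone genes numbered 4, and without melatonin animal 5 there was 1. Psmd5, a chaperone of the ATPase base, stood at 20.55, 27.49 and 21.25 FPKM in melatonin animals 4, 5 and 6 and at 28.15, 24.56 and 27.62 FPKM in vehicle animals 1, 2 and 3. Melatonin animals 4 and 6 lay below all vehicle animals and animal 5 among them (log2 difference -0.21 ± 0.14 SE, limma adjusted p = 0.972). Psmg2, a chaperone of the alpha ring, stood at 10.96, 11.45 and 8.81 FPKM in melatonin animals and 13.64, 7.58 and 13.79 FPKM in vehicle animals. The vehicle group held both its highest and its lowest values, on 26 to 51 estimated reads. Psmd10, also called gankyrin and a chaperone of the base, stood at 6.94, 12.65 and 13.10 FPKM in melatonin animals and 7.62, 10.16 and 14.12 FPKM in vehicle animals. Its spread within each group was about as wide as its whole range, on 16 to 33 estimated reads (log2 difference 0.02 ± 0.28 SE). Psmd9 and Psmg4 had differences of -0.02 ± 0.20 and 0.13 ± 0.20 SE.

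Proteins that cap or inhibit the core particle gave values in both directions, with 2 of 3 positive, or 1 of 3 without vehicle animal 3. Psmf1, known as PI31, which inhibits the core particle in vitro, stood at 32.33, 32.55 and 39.12 FPKM in melatonin animals 4, 5 and 6 and at 29.63, 31.06 and 27.63 FPKM in vehicle animals 1, 2 and 3. The groups did not overlap, and melatonin animal 6 was the furthest from the vehicle values (log2 difference 0.22 ± 0.12 SE, limma adjusted p = 0.972). In the authors' deposited table its log2 ratio was 0.24 and its score, headed a probability, was 0.397, the highest of any member, where the highest of any transcript was 0.965. Psme4, the large cap PA200, stood at 30.33, 34.73 and 33.37 FPKM in melatonin animals and 36.56, 35.53 and 36.22 FPKM in vehicle animals. It was the member for which all melatonin values were lower than all vehicle values, with 767 to 941 estimated reads per library (log2 difference -0.14 ± 0.10 SE, limma adjusted p = 0.972). Psme3, the nuclear cap PA28 gamma, stood at 62.91, 53.58 and 57.21 FPKM in melatonin animals and 55.89, 62.33 and 43.90 FPKM in vehicle animals, and the groups overlapped (log2 difference 0.11 ± 0.14 SE).

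Psmc3ip, a partner in meiotic recombination that is no proteasome subunit, had the largest difference of the 41. It stood at 3.50, 4.64 and 3.41 FPKM in melatonin animals 4, 5 and 6 and at 2.17, 1.69 and 3.14 FPKM in vehicle animals 1, 2 and 3. The groups did not overlap, but a library held 5 to 15 estimated reads (log2 difference 0.55 ± 0.24 SE, limma adjusted p = 0.972). Psme3ip1, which binds Psme3, stood at 21.54, 27.80 and 28.69 FPKM in melatonin animals and 26.60, 29.01 and 24.07 FPKM in vehicle animals, with overlap (log2 difference -0.04 ± 0.14 SE).

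Animals of the same group differed in a way that many subunits shared. This pattern was picked out after the values were seen and is given as a description. Melatonin animal 4 lay below animals 5 and 6 for 29 of 41 members, or 70.7%, against 26.6% of all features. Vehicle animal 1 lay above animals 2 and 3 for 25 of 41, or 61.0%, against 32.3% of all features. Among features with a mean of at least 20 FPKM these shares were 32.1% and 33.8%. The highest of the 6 values was in melatonin animal 5 for 16 members and in vehicle animal 1 for 9. The lowest was in vehicle animal 2 for 15 members and in melatonin animal 4 for 12. The median difference from the vehicle mean over the members was -0.06, 0.14 and 0.08 in melatonin animals 4, 5 and 6 and 0.08, -0.04 and -0.02 in vehicle animals 1, 2 and 3. Over all features these medians were 0.04, 0.00 and -0.09 in melatonin animals and -0.01, 0.01 and 0.00 in vehicle animals.

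**Figure D3:**
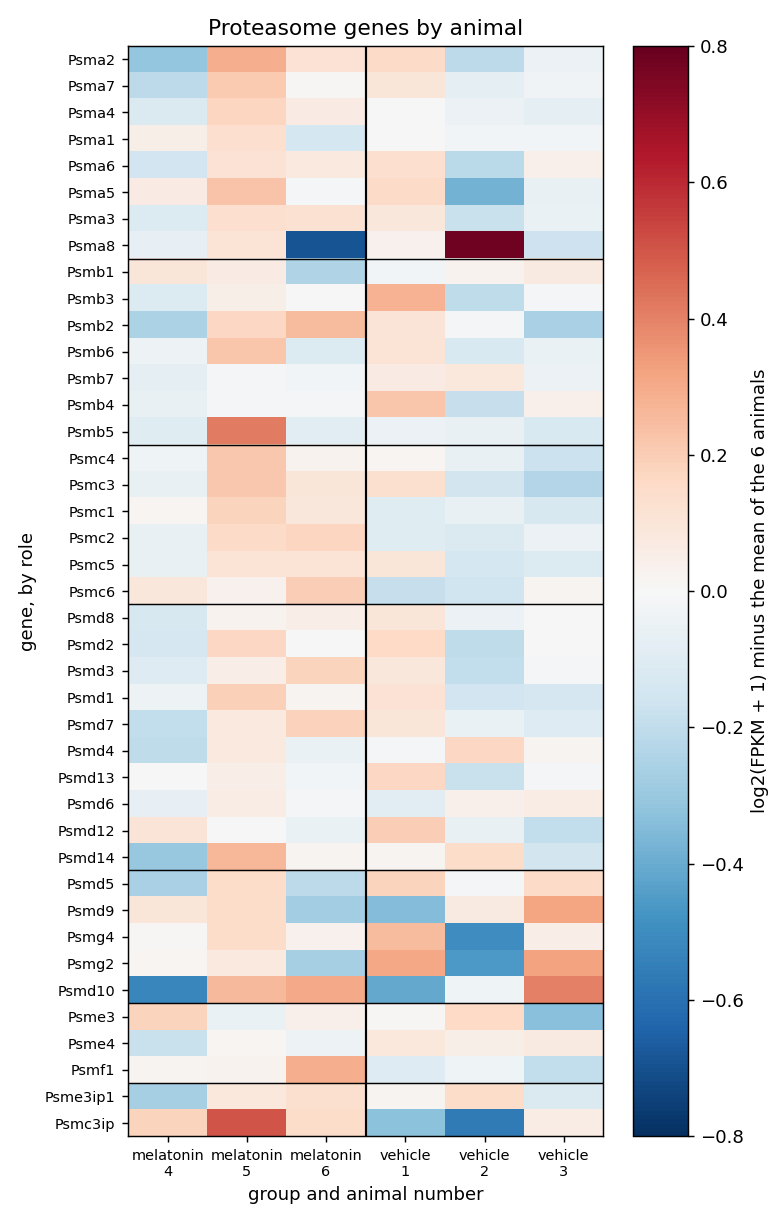
Each gene's log2(FPKM + 1) minus its mean over the 6 animals (colour, red above and blue below), for 3 melatonin animals on the left and 3 vehicle animals on the right. Red is commonest in melatonin animal 5 and vehicle animal 1 and blue in melatonin animal 4 and vehicle animal 2, so the colour follows the animal more than the group.

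The interferon-induced genes that the rule left out also set melatonin animal 4 and vehicle animal 1 apart within their groups, on a wider scale. All 5 were highest in melatonin animal 6, whereas 16 members were highest in animal 5 and 7 in animal 6. Psmb8, Psmb9, Psmb10, Psme1 and Psme2 summed to 225.9, 367.8 and 425.8 FPKM in melatonin animals 4, 5 and 6 and to 349.1, 220.1 and 236.8 FPKM in vehicle animals 1, 2 and 3, and each of the 5 was lower in animal 4 than in animals 5 and 6 and higher in vehicle animal 1 than in animals 2 and 3. Markers of T and NK cells summed to 8.38, 19.4 and 32.4 FPKM in melatonin animals and 15.7, 13.1 and 4.85 FPKM in vehicle animals. Heat shock genes, 10 tested, had medians from the vehicle mean of -0.47, 0.21 and 0.05 in melatonin animals 4, 5 and 6 and 0.23, -0.03 and -0.17 in vehicle animals 1, 2 and 3. Summed, they stood at 2722, 3161 and 3191 FPKM in melatonin animals and 4237, 3396 and 3209 FPKM in vehicle animals. Each melatonin sum was thus below each vehicle sum, unlike the medians. Their log2 differences ran from -1.33 to 0.26, 5 positive and 5 negative. For 3 of the 10 each melatonin animal lay below each vehicle animal, against 4.33% of all features, and for 0 above. At an unadjusted limma p under 0.05, 3 of the 10 were lower and 0 higher, against 1.92% and 1.82% of all features. None passed the threshold (smallest limma adjusted p = 0.254). The part of these groups in the values of the constitutive subunits was not tested.

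**Figure D4:**
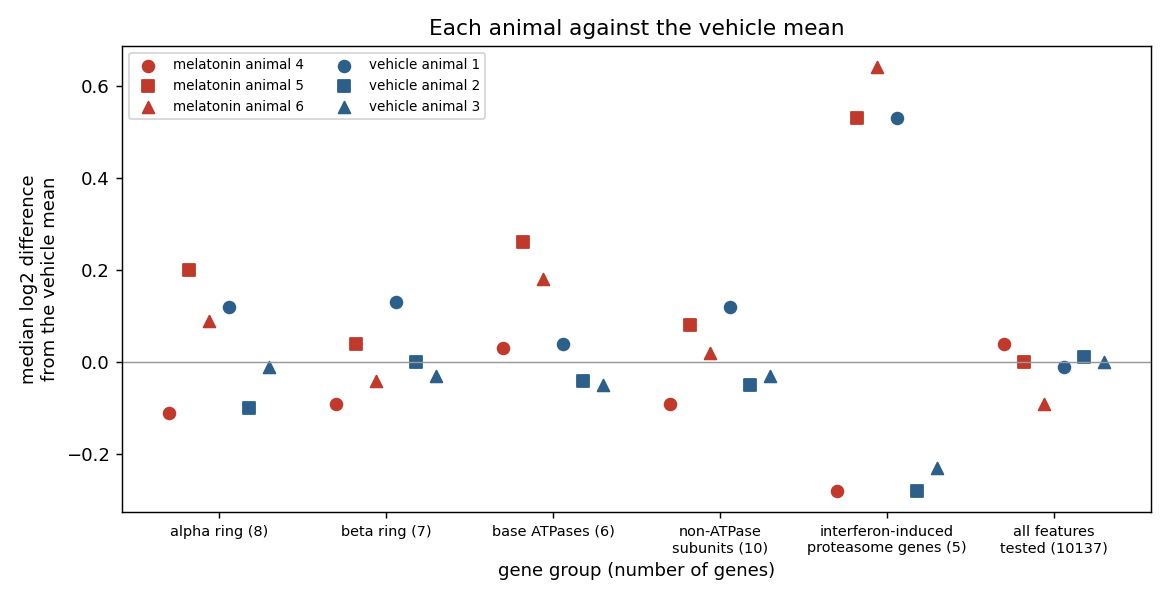
Median log2 difference of each animal from the vehicle mean, for the 4 groups of core and regulatory particle subunits, the 5 interferon-induced proteasome genes and all 10137 features. Melatonin animals 5 and 6 and vehicle animal 1 lie high and the other 3 low in the interferon-induced genes, at -0.28 to 0.64, while the constitutive groups stay between -0.11 and 0.26.

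Partners of the proteasome without a Psm symbol gave the same picture of no called change. Of 13 measured receptors, shuttles and assembly factors, 0 passed the threshold and 9 had positive log2 differences. The 3 with the smallest p were Zfand2a, a stress-induced proteasome adaptor, the deubiquitinase Usp14 and the maturation factor Pomp. Zfand2a stood at 10.46, 10.08 and 13.19 FPKM in melatonin animals 4, 5 and 6 and at 12.74, 13.82 and 13.05 FPKM in vehicle animals 1, 2 and 3. Melatonin animal 6 lay within the vehicle range (log2 difference -0.22 ± 0.15 SE, limma adjusted p = 0.972). Usp14 stood at 18.40, 23.40 and 22.01 FPKM in melatonin animals and 18.35, 15.98 and 21.75 FPKM in vehicle animals, with overlap (log2 difference 0.18 ± 0.15 SE). Pomp stood at 165.98, 187.79 and 197.82 FPKM in melatonin animals and 194.72, 147.55 and 160.23 FPKM in vehicle animals, where vehicle animal 1 lay near the melatonin maximum (log2 difference 0.14 ± 0.12 SE).

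The pathway that activates NFE2L1 at the endoplasmic reticulum had 7 measured genes, 3 with positive and 4 with negative log2 differences and 0 past the threshold. Nfe2l1 itself was not analysed here. Ufd1, a cofactor of the segregase that extracts proteins from that membrane, stood at 20.27, 27.73 and 20.54 FPKM in melatonin animals 4, 5 and 6 and at 15.66, 22.61 and 20.95 FPKM in vehicle animals 1, 2 and 3, with overlap (log2 difference 0.20 ± 0.18 SE). Its partner Nploc4 stood at 21.88, 22.32 and 24.19 FPKM in melatonin animals and 25.74, 25.68 and 23.27 FPKM in vehicle animals, where vehicle animal 3 lay among the melatonin values. Sel1l, an adaptor of a ubiquitin ligase there, stood at 30.97, 28.80 and 30.17 FPKM in melatonin animals and 32.93, 32.17 and 30.11 FPKM in vehicle animals, which overlap as well. Of 6 genes for ubiquitin and its activating enzymes, 0 passed. Ubb, which encodes polyubiquitin, stood at 2131.89, 2116.13 and 1772.62 FPKM in melatonin animals 4, 5 and 6 and at 2101.71, 2207.17 and 1917.66 FPKM in vehicle animals 1, 2 and 3, with overlap. Rps27a, which encodes ubiquitin joined to a ribosomal protein, stood at 200.05, 189.65 and 193.83 FPKM in melatonin animals and 205.17, 189.83 and 216.19 FPKM in vehicle animals. Its groups overlapped too.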

How the data were processed

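RNA from 3 melatonin and 3 vehicle animals was sequenced after oligo(dT) selection and random priming, per the labels' protocols, which describe no strand marking. The deposited table gives FPKM per RefSeq transcript and animal, made by the authors, per the file headers. Beside it stand the authors' log2 ratio and a probability score for each transcript, whose making no source used here describes. Tools listed in the submitters' processing notes are RSEM, Bowtie2 and BWA 0.7.10-r789, with the build rn6 and no roles. The transcript length is the deposited file's other value used here.

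Of 13647 transcripts, 12883 matched a symbol of the RefSeq rat annotation (GRCr8, for names and promoters), and transcripts of 1 gene were summed. Features with a mean of at least 1 FPKM (10137) entered limma 3.58.1 (R 4.3.3) as log2(FPKM + 1), unscaled, with a mean trend, two-sided, and Benjamini-Hochberg adjustment over all of them at 0.05. This scale understates the change of low genes. The p-values measure the spread between animals. Estimated reads came from the steps between low FPKM values: after subtracting 35 bases from each length, 89.4% to 92.5% of low values came within 0.1 of whole reads. These reads went into limma voom with scaling by library total. The fit was tested on simulated data.

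The members and lists were chosen with earlier results of these data known. Values in every animal are given for the 6 largest differences in each direction, the catalytic subunits, the highest and lowest member of each role, and members whose groups did not overlap, and for partner lists the 3 smallest p, apart from 1 gene that is not reported here. The alternatives were 2 scalings, 2 filters, another pseudocount, voom, no trend, a looser threshold, unsummed transcripts and each animal left out.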

Additional observations from a re-analysis of the deposited data

How the results depend on the processing

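No member was called under any of the 16 alternatives, with a smallest adjusted p of 0.396 (limma, Psmc2 without melatonin animal 4). At an unadjusted p under 0.05 at most 1 member appeared in any of them. The median log2 difference of the members, 0.03, ranged from -0.02 to 0.11 with 1 animal left out. Without melatonin animals 5 and 6, an alternative chosen after seeing the data, it was -0.06, with 1 melatonin animal assumed to vary like the others. Of 176 values of the 22 named members under the alternatives that keep all animals, 1 changed sign, Psmd14, at 0.01 with median-of-ratios scaling. With 1 animal left out, 18 of 132 changed sign, in 10 genes whose differences ranged as follows: Psma2 -0.06 to 0.24, Psmb1 -0.11 to 0.06, Psmb5 -0.01 to 0.24, Psmb6 -0.05 to 0.11, Psmd8 -0.07 to 0.02, Psmd10 -0.17 to 0.29, Psmd14 -0.15 to 0.14, Psme3 -0.03 to 0.22, Psme3ip1 -0.11 to 0.09 and Psmg2 -0.38 to 0.02. The causes were not tested. No paired analysis was made because the labels record no pairing of the animals. Depth limits Psma8 and Psmc3ip most, which rest on 25 or fewer estimated reads per library. Psmg4 and Psmd10 are little better off, at 14 to 27 and 16 to 33 estimated reads.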

Other observations

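4 transcripts without a symbol match, and so no members, are named as proteasome proteins in the deposited table's own similarity column. The one named as regulatory particle subunit 11 stood at 34.90, 36.09 and 33.23 FPKM in melatonin animals 4, 5 and 6 and at 36.66, 37.04 and 38.51 FPKM in vehicle animals 1, 2 and 3. Each melatonin animal lay below each vehicle animal, as held for 4.33% of all features tested. The one named as assembly chaperone 1 stood at 20.90, 18.05 and 22.62 FPKM in melatonin animals and 19.89, 17.85 and 20.10 FPKM in vehicle animals. A transcript named after the alpha subunit 3 stood at 20.38, 36.12 and 34.99 FPKM in melatonin animals and 32.73, 26.90 and 24.84 FPKM in vehicle animals. Its values were not added to those of Psma3, whose mean of 31.9 FPKM is the lowest of the common core particle subunits. Whether it belongs to that gene was not tested. The one named as beta subunit 11, which in mice belongs to the thymus proteasome, was at most 1.00 FPKM in melatonin animals and 1.29 FPKM in vehicle animals.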
